A study of Mus musculus with 29 samples.

Results

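The collagen genes were examined as windows of DNA methylation along the autosomes. A window here is a stretch of DNA with a fixed number of CpGs, in which a cytosine is followed by a guanine, and its value is the percentage of methylated calls (%DNAm). All autosomal windows whose gene name was Col, a number, a and a number were taken, which gave 1006 of the 260686 windows of the table (251181 of them autosomal) and 42 gene names. Of these names, 41 belonged to collagen chains, with 991 windows. The other was Col4a3bp, with 15 windows, which codes for a ceramide transport protein and matched by name only. Another 50 windows of Col4a5 and Col4a6 lay on the X chromosome and were left out, and no window was named for Col10a1. A gene had from 5 windows (Col3a1 and Col20a1) to 90 windows (Col25a1). In 65 collagen windows (6.46%) another annotated gene shared bases with the window, so that a value there may belong to either gene.

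The libraries came from a piece of right lung of 29 female Balb/c offspring aged 13 weeks and were made by enzymatic methyl-sequencing (WGMS), which reads methylated cytosines after the unmethylated ones have been converted by enzymes. Sham offspring (n = 7) and Sham-OVA offspring (n = 7) were born to dams given saline through the nose. PM offspring (n = 7) and PM-OVA offspring (n = 8) were born to dams given fine particulate matter (PM2.5) before mating and until weaning. Offspring of both OVA groups were sensitised to ovalbumin, an egg protein, and then inhaled it to induce allergic airways disease, whereas the other offspring received saline, written as PBS in the labels. The tissue was a homogenate of whole lung, so a shift in the mix of cells and a change of methylation within one type of cell cannot be told apart. The coverage behind each percentage is unknown here, and the number of libraries limits the precision. Sham replicate 1 stood apart from its label, since it had a value in 1224 of 1230 windows of the Y chromosome, against 29 to 46 in the other libraries. The total counts of windows, genes and DMRs are also given without it.

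Collagens are built from 3 chains wound into a triple helix. Fibrillar collagens form the fibres that bear tension in airway walls and blood vessels, basement membrane collagens form sheets under epithelium and endothelium, and other families tie fibrils together, bridge layers or span the cell membrane. In asthma the airway wall is known for added collagen beneath the epithelium. Methylation of CpGs at a gene start is commonly found at genes that are not transcribed, while the bodies of active genes are usually methylated, so the position of a window matters when its value is read.

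Stretches of reference sequence are shown first for the windows that met the call threshold used below or carried the clearest pattern. Each is the stretch of a window that is richest in CpGs and free of annotated untranslated bases, in the direction of the gene, with CpGs in capitals. The positions on GRCm38 are chr8:11308808-11309107 for Col4a1 (minus strand, 11 CpGs), chr17:34038624-34038873 for Col11a2 (17 CpGs), chr4:47272553-47272852 for Col15a1 (7 CpGs) and chr8:11313668-11313967 for Col4a2 (23 CpGs). The Col4a1, Col11a2 and Col15a1 stretches hold no exon base, and 17 bases of the Col4a2 stretch are exonic.
Col4a1 window 4: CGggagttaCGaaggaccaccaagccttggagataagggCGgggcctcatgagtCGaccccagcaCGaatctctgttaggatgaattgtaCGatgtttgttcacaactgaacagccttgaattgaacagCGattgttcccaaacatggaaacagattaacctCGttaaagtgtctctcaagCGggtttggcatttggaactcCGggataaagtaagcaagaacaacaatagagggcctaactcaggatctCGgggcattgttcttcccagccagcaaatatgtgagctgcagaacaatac
Col11a2 window 1: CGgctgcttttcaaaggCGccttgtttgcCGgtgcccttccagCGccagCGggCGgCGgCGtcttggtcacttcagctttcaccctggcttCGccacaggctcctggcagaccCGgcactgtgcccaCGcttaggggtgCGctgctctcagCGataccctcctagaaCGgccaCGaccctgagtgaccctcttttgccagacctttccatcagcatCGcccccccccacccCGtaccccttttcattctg
Col15a1 window 15: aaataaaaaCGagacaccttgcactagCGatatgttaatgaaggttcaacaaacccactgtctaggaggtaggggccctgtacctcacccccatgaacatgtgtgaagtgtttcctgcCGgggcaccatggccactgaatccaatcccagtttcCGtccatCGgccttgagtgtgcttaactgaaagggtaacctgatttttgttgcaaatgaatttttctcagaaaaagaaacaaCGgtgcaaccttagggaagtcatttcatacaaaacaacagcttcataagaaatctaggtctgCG
Col4a2 window 1: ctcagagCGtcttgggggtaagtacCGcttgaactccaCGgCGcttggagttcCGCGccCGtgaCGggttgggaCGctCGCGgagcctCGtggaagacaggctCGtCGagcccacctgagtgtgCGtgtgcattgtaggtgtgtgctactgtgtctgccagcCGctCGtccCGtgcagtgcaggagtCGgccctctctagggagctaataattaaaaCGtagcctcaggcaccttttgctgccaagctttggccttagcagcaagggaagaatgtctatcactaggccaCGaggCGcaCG
The sequence before the start of Col3a1 (RefSeq, GRCm38.p6, chr1:45311288-45311537) is shown as a contrast, because its 250 bases hold 0 CpGs. The 50 CpGs of the window over that start were therefore gathered from 8631 bp around it.
Col3a1 promoter: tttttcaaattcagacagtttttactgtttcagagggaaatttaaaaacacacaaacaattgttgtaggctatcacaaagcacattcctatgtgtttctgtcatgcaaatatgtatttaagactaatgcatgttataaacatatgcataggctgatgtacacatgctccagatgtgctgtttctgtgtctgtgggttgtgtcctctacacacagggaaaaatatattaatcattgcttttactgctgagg
Among the collagen genes with a promoter record, the count over the same 250 bases reached 31 CpGs at Col4a1, more than in 94.8% of all 32851 records.

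The first question was how methylated the collagen genes were as a group. The mean over collagen windows came to 72.4% with an SD of 0.412 over the 7 Sham libraries, and to 71.6% with an SD of 0.706 over the 7 Sham-OVA libraries. It came to 72.7% with an SD of 0.519 over the 7 PM libraries, and to 71.2% with an SD of 0.508 over the 8 PM-OVA libraries. Single libraries ranged from 71.8 to 72.9% in Sham and from 70.5 to 72.4% in Sham-OVA, so these groups overlapped. They ranged from 71.95 to 73.6% in PM and from 70.4 to 71.8% in PM-OVA, which did not overlap. Relative to all autosomal windows of the same library, collagen windows were higher by 3.32 points in Sham, 2.89 in Sham-OVA, 3.38 in PM and 2.78 in PM-OVA. That excess was at least 3.23 points in every unchallenged library and at most 3.08 points in every OVA library. Few collagen windows were unmethylated, with 2.49% of them under 10 %DNAm in Sham against 7.12% of all autosomal windows.

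OVA challenge was tested window by window in the 259167 of 260686 windows that had at least 3 values in each group. Shares given for all windows, or for all autosomal windows, are over these tested windows. The term DMR, for differentially methylated region, is used here for windows that pass an adjusted p of 0.05 and whose group means lie at least 10 percentage points apart. In Sham offspring 1 collagen window was a DMR (all windows, 0.775%), and in PM offspring 2 were (all windows, 0.584%). Most differences were smaller, and 942 of the 1006 windows lay within 5 points of no difference in Sham and 934 in PM. Without the minimum difference, 309 collagen windows (30.7%) were lower after OVA in Sham offspring, against 22.3% of all windows, and 109 (10.8%) were higher, against 13.3%. In PM offspring, 488 (48.5%) were lower, against 34.8% of all windows, and 65 (6.46%) were higher, against 9.26%. The median difference was -0.937 points over the collagen windows and -0.414 over all windows in Sham, and -1.86 and -1.03 points in PM. When each library was centred by the median distance of its windows from the mean of all libraries, 265 collagen windows were lower and 143 higher in Sham, and 314 lower and 127 higher in PM. Over all windows, 18.4% were then lower and 18.5% higher in Sham, and 20.4% lower and 21.8% higher in PM. Centring added a median of 0.396 points to the differences in Sham and 0.98 points in PM. Near 0% an amount of that size can by itself carry a value across the threshold, as in PM at the start windows of Col12a1, Col14a1 and Col18a1, so centred counts over windows of low level carry that shift. Without Sham replicate 1, 293 were lower and 106 higher in Sham, and 486 lower and 64 higher in PM, while the DMRs stayed at 1 and 2.

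The 2 arms shared no library, although the spread was estimated over all 29 libraries. Across collagen windows the differences of the arms had Pearson's r = 0.889, which describes 1006 windows that are not independent of their neighbours (all windows, 0.879). Both arms called 290 collagen windows lower (28.8%, against 19.7% of all windows) and 55 higher (5.47%, against 7.57%), and 0 were called in opposite directions (46 of all windows). Another 73 were called in Sham alone (7.26%, against 8.28%) and 208 in PM alone (20.7%, against 16.8%), which is not a test of a difference between the arms. When the windows of each gene were averaged to 1 value per library, 14 of the 42 genes fell and 4 rose in Sham, against 27.7% and 12.0% of 38037 genes, and 31 fell and 3 rose in PM, against 47.4% and 6.93%. After centring, 13 genes were lower and 9 higher in Sham, and 21 lower and 7 higher in PM. Without Sham replicate 1, 14 were lower and 4 higher in Sham, and 30 lower and 3 higher in PM.

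**Figure D1:**
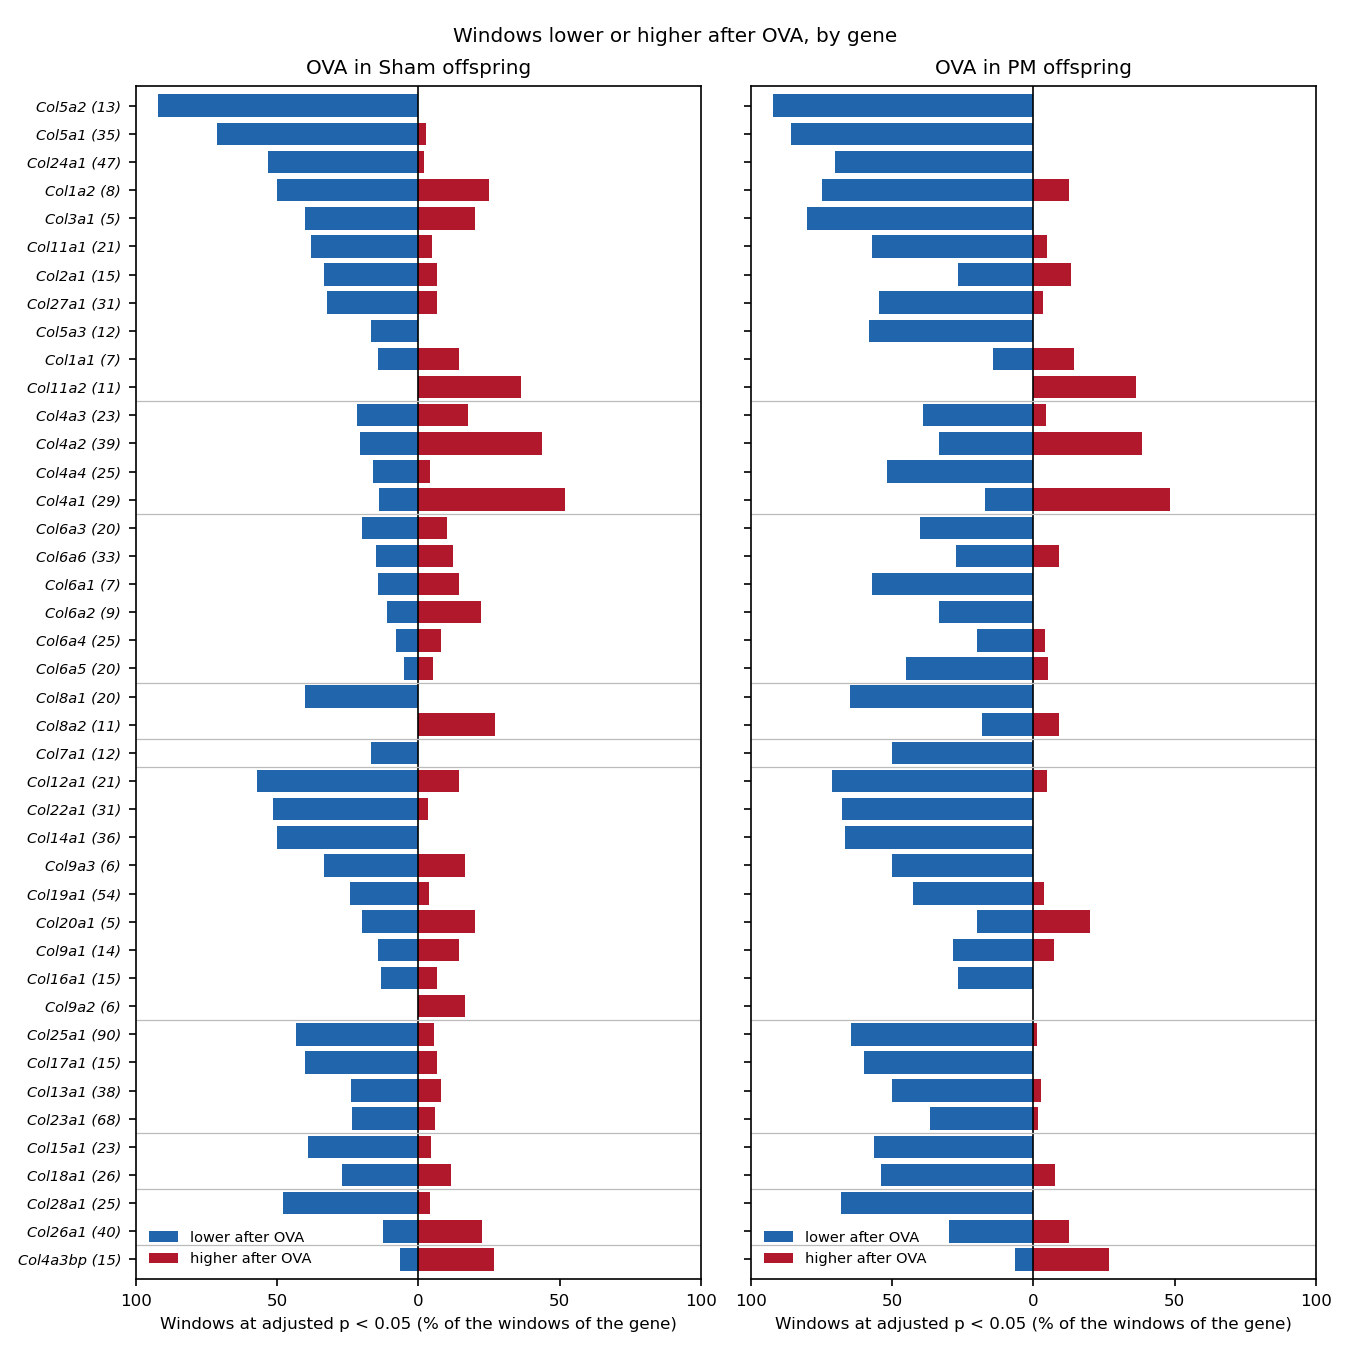
Share of the windows of each gene (in percent, number of windows in parentheses) with an adjusted p under 0.05, lower after OVA to the left and higher to the right, for Sham offspring (left panel) and PM offspring (right panel), with grey lines between collagen families in the order fibrillar, basement membrane, beaded filament, short chain, anchoring fibril, fibril associated, transmembrane, multiplexin, other and Col4a3bp. Col5a2 and Col5a1 have the largest shares of falls in Sham offspring, and Col4a1 and Col4a2 the largest shares of rises.

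Fibrillar collagens, with 205 windows in 11 genes, had 94 windows lower and 14 higher in Sham (45.9% and 6.83%), and 126 lower and 10 higher in PM (61.5% and 4.88%). All windows gave 22.3% and 13.3%, and 34.8% and 9.26%. After centring the counts of the family were 85 and 22, and 99 and 18. Type V collagen starts fibril formation and limits the width of type I fibrils, and 2 of its 3 chains, Col5a1 and Col5a2, were lower along most of their length. Of 35 windows of Col5a1, 25 fell and 1 rose in Sham, while 30 fell in PM. Of 13 windows of Col5a2, 12 fell in each arm. The mean over Col5a1 lay between 80.1 and 81.3% in the Sham libraries (median 81.1%) and between 76.6 and 79.0% (median 77.4%) in Sham-OVA. In PM it ran from 80.7 to 81.4% (median 81.2%) and in PM-OVA from 75.9 to 78.0% (median 76.9%). The groups did not overlap in either arm, with differences of -3.41 points (adjusted p = 2.23e-08) and -4.28 points (adjusted p = 2.15e-10).

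Col5a2 showed the same separation. Its mean over 13 windows was 78.1 to 79.3% in Sham (median 78.9%) against 73.4 to 76.8% in Sham-OVA (median 74.4%), a difference of -3.94 points (adjusted p = 1.03e-07). In PM it was 78.4 to 79.5% (median 78.9%) against 72.8 to 75.5% in PM-OVA (median 74.5%), a difference of -4.63 points (adjusted p = 2.53e-09). In both genes, 11 consecutive windows fell in both arms, windows 16 to 26 of Col5a1 and windows 3 to 13 of Col5a2. The largest single falls in Col5a1 were at window 31 in Sham (83.6 to 75.1%, adjusted p = 2.13e-06) and at window 19 in PM (chr2:27972800-27977312, 78.1 to 70.5%, adjusted p = 7.37e-06). None of the windows of Col5a1 or Col5a2 reached 10 points. Col5a3 had fewer calls, with 2 of 12 windows lower in Sham and 7 in PM (1 and 3 after centring). These shares were 16.7% and 58.3%, against 22.3% and 34.8% of all windows.

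**Figure D2:**
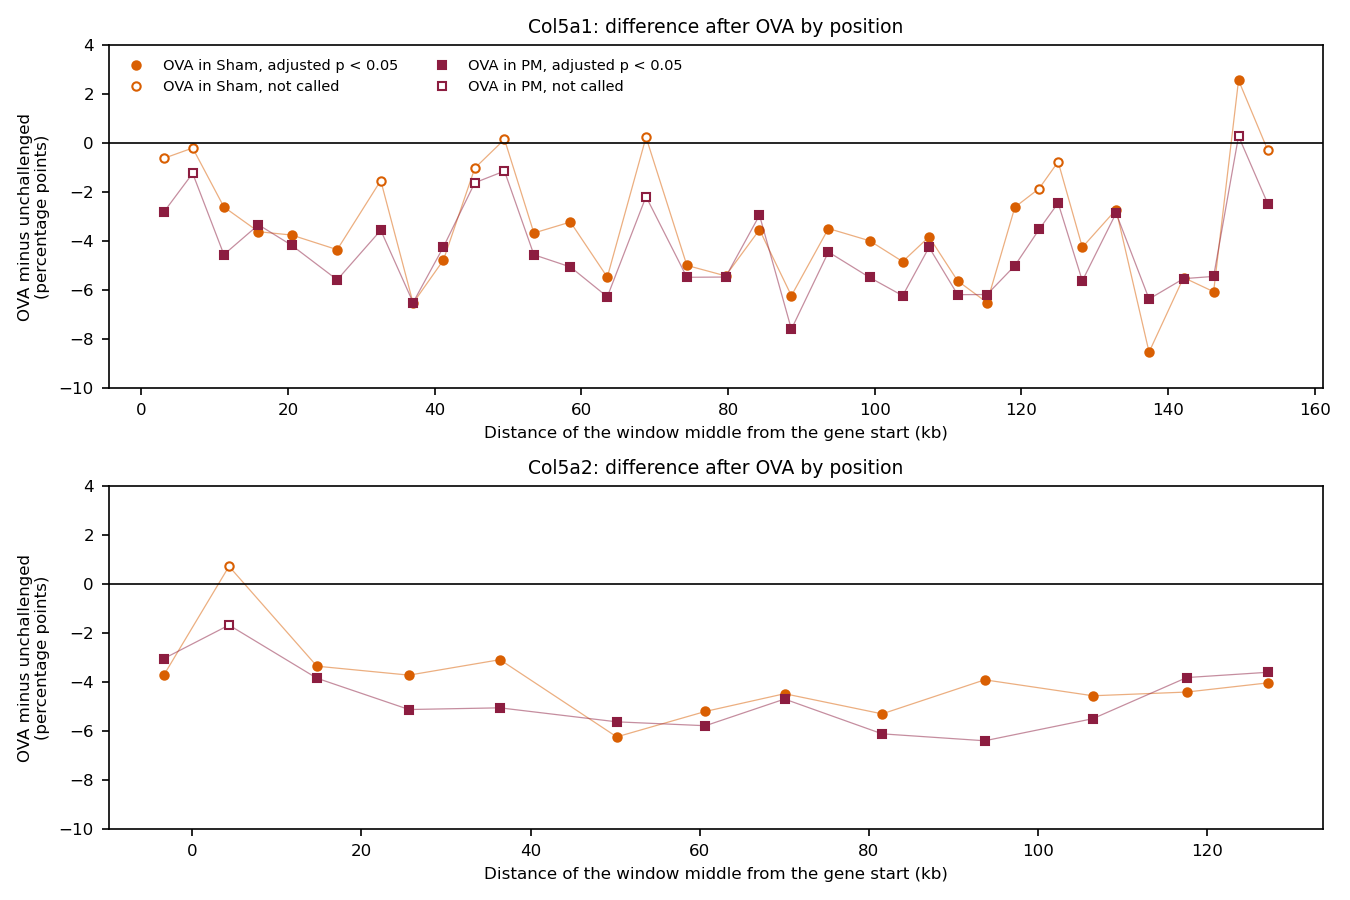
Difference in %DNAm between OVA and unchallenged libraries (percentage points, vertical axis) for each window of Col5a1 (top) and Col5a2 (bottom) by the distance of its middle from the gene start (kb), with circles for Sham and squares for PM offspring, filled where the adjusted p was under 0.05. Nearly all filled symbols lie below 0, and the exception is 1 window near the end of Col5a1 in Sham offspring.

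Other fibrillar genes divided between the start and the body of the gene. The windows over the starts of Col1a1 and Col1a2, which code for the chains of type I collagen, rose. In Col1a1 window 1 (chr11:94934649-94937021) the Sham libraries ran from 20.2 to 26.3% (median 23.3%) and the Sham-OVA libraries from 24.6 to 35.4% (median 32.5%), a difference of 7.76 points (adjusted p = 0.000145). The PM libraries ran from 21.6 to 30.5% (median 24.9%) and the PM-OVA libraries from 26.8 to 32.1% (median 29.2%), a difference of 4.25 points (adjusted p = 0.0138). The groups overlapped in both arms, and 6 of 7 Sham-OVA but 2 of 8 PM-OVA libraries lay above all libraries of their control group. Averaged over all 7 windows, Col1a1 gave 55.2% in Sham and 55.6% in Sham-OVA (adjusted p = 0.608).

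In Col1a2 window 1 (chr6:4503806-4506229), which Gm43921 also overlaps, the Sham libraries ran from 8.90 to 13.5% (median 9.56%) and the Sham-OVA libraries from 11.7 to 15.8% (median 14.5%), a difference of 3.44 points (adjusted p = 0.000539). The PM libraries ran from 9.27 to 12.9% (median 10.7%) and the PM-OVA libraries from 13.1 to 16.4% (median 14.3%), a difference of 3.72 points (adjusted p = 0.000157). All 8 PM-OVA libraries, and 5 of 7 Sham-OVA libraries, lay above their controls. The start window of Col3a1, the chain of type III collagen, which Gm47302 also overlaps, rose from 48.1 to 52.8% in Sham (adjusted p = 0.00245) and went from 49.6 to 50.9% in PM (adjusted p = 0.369). Toward the 3' end of both Col1a2 and Col3a1 the direction turned, with windows 6 to 8 of Col1a2 and windows 4 and 5 of Col3a1 lower in both arms.

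Col11a2 codes for a type XI chain that is best known from cartilage. Its window 1 (chr17:34038624-34039680), with 813 bp of promoter, was a DMR in PM offspring. The Sham libraries ran from 12.9 to 21.3% (median 17.7%) and the Sham-OVA libraries from 16.8 to 31.6% (median 25.9%). In PM the range was 13.5 to 21.8% (median 16.4%) and in PM-OVA 19.7 to 33.2% (median 27.3%). OVA raised it by 8.08 points in Sham (adjusted p = 0.00364) and 10.2 points in PM (adjusted p = 0.000194), with 1 OVA library inside the control range in each arm. The difference in PM came out under 10 points when any of 7 single libraries was left out (PM replicate 2, 6 or 7, or PM-OVA replicate 1, 2, 3 or 7), with 9.38 points as the lowest. The OVA libraries were more widely spread than their controls, with SDs of 5.18 and 5.04 points against 2.96 and 3.12. Over its 11 windows 4 rose and 0 fell in each arm. That was 36.4% higher, against 13.3% of all windows in Sham and 9.26% in PM, where 22.3% and 34.8% fell. After centring 8 and 5 rose, against 18.5% and 21.8% of all windows.

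Col24a1, a fibrillar collagen known from bone and cornea, had 25 of 47 windows lower in Sham and 33 in PM. These were 53.2% and 70.2%, against 22.3% and 34.8% of all windows. After centring, 19 were lower and 2 higher in Sham, and 25 lower and 3 higher in PM. Its window 8 fell from 75.6 to 68.4% in Sham (adjusted p = 8.85e-07) and from 75.2 to 68.5% in PM (adjusted p = 7.81e-07). Col27a1 window 19 fell from 66.5 to 59.5% (adjusted p = 2.86e-06) and from 66.5 to 58.9% (adjusted p = 4.54e-07), without overlap of the groups in either arm. Col2a1, the cartilage collagen, gave 55.8% in Sham and 55.5% in Sham-OVA as a gene mean (adjusted p = 0.457).

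Basement membrane collagens, with 116 windows in 4 genes, had 37 windows higher and 21 lower in Sham (31.9% and 18.1%), and 30 higher and 40 lower in PM (25.9% and 34.5%). All windows gave 13.3% and 22.3%, and 9.26% and 34.8%, so the share of falls in PM was that of the background. After centring, 42 were higher and 18 lower in Sham, and 38 higher and 25 lower in PM. The rises lay mainly in Col4a1 and Col4a2, which form the common type IV network and are read in opposite directions from 1 shared promoter. These 2 genes had 32 of 68 windows higher and 12 lower in Sham, and 29 higher and 18 lower in PM (37 and 9, and 34 and 12, after centring). Col4a1 window 4, an intronic window 4.5 kb from the gene start (chr8:11306956-11309692), was a DMR in Sham offspring. The Sham libraries ran from 55.5 to 63.4% (median 60.2%) and the Sham-OVA libraries from 67.8 to 77.1% (median 70.3%), which did not overlap, and the difference was 12.1 points (adjusted p = 1.03e-06). The PM libraries ran from 55.7 to 64.5% (median 59.99%) and the PM-OVA libraries from 63.7 to 72.9% (median 69.7%). The difference there was 9.37 points (adjusted p = 1.79e-05), and 7 of 8 PM-OVA libraries lay above every PM library.

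**Figure D3:**
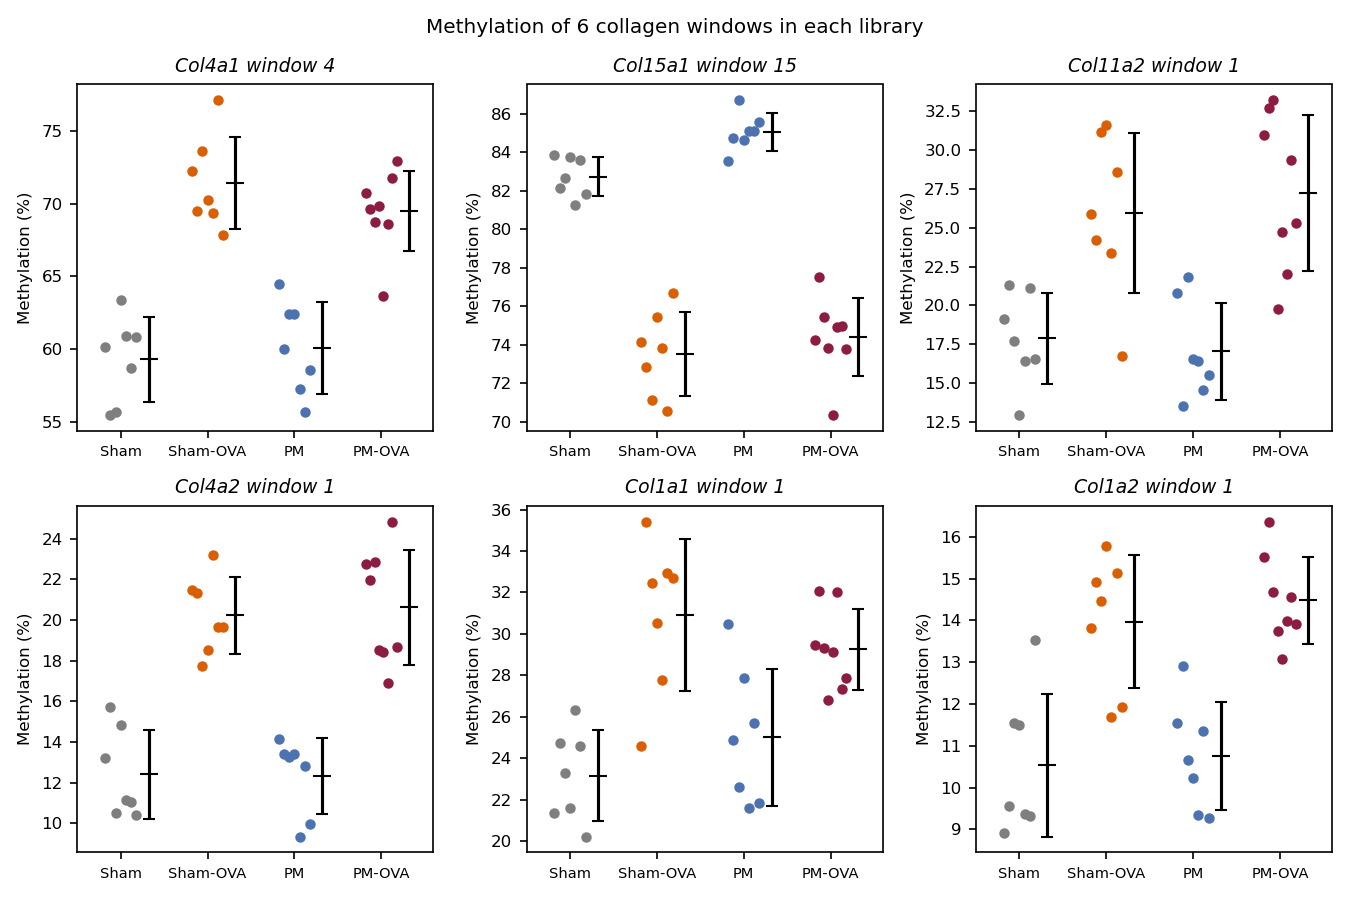
%DNAm (vertical axis, different ranges) of each library in 6 collagen windows, with Sham in grey, Sham-OVA in orange, PM in blue and PM-OVA in dark red, and the mean with SD in black beside the points. In Col4a1 window 4 the Sham-OVA libraries start at 67.8% and the Sham libraries end at 63.4%, while in Col15a1 window 15 the OVA libraries lie below all unchallenged ones.

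The shared promoter itself was nearly unmethylated. Col4a1 window 1 (chr8:11312786-11313228), where 50 CpGs fit in 443 bp, had a mean of 0.441% (SD 0.355) in the 7 Sham libraries and 1.02% (SD 0.2) in the 7 Sham-OVA libraries (adjusted p = 0.0214), and 0.384% and 1.12% in PM and PM-OVA (adjusted p = 0.00762). On the percent scale, without the log ratio, these adjusted p-values were 0.192 and 0.0718. On the other side of it, Col4a2 window 1 (chr8:11313229-11314862) went from a range of 10.4 to 15.7% in Sham (median 11.2%) to 17.7 to 23.2% in Sham-OVA (median 19.6%). It went from 9.34 to 14.2% in PM (median 13.2%) to 16.9 to 24.8% in PM-OVA (median 20.3%). No library of one group entered the range of the other, and the rises were 7.82 points (adjusted p = 6.16e-06) and 8.29 points (adjusted p = 1.44e-06).

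The rises reached far into both genes and gave way to falls at their ends. Taking a boundary chosen after the values were seen, windows 1 to 18 of Col4a1 held all 15 of its rises and 0 falls in Sham (14 and 0 in PM), and windows 19 to 29 held 0 rises and 4 falls (0 and 5 in PM). After centring, 2 windows of Col4a1 were lower in Sham and 3 in PM. The near windows of Col4a1 were less methylated, with a median of 59.95% in Sham, than the far ones, with 81.4%. In Col4a2, windows 1 to 24 held 15 rises and 1 fall in Sham, and windows 25 to 39 held 2 rises and 7 falls. In PM these were 13 rises and 3 falls, and 2 rises and 10 falls. At the 3' end of Col4a1, window 29 fell from 79.9 to 72.3% in Sham (adjusted p = 3.77e-06) and from 80.9 to 72.7% in PM (adjusted p = 3.44e-07). Neighbouring windows of Col4a2 could differ in direction, as window 25 fell from 86.4 to 81.6% in Sham while window 26 rose from 65.9 to 74.5%. Further on, window 29 fell from 81.2 to 75.8%. Windows 26 and 29 overlap Gm15419.

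**Figure D4:**
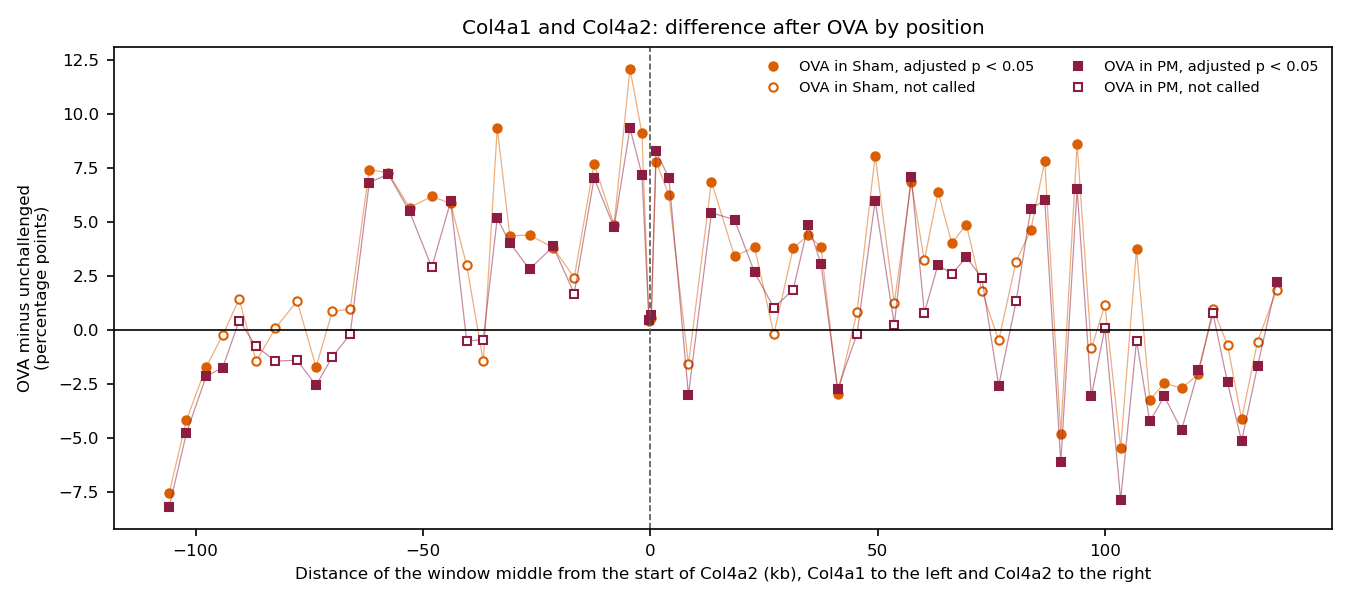
Difference in %DNAm between OVA and unchallenged libraries (percentage points, vertical axis) for each window of Col4a1 (left) and Col4a2 (right) by its distance from the start of Col4a2 (kb), with circles for Sham and squares for PM offspring, filled where the adjusted p was under 0.05. Most filled symbols near the start lie above 0 apart from the shared promoter window, which is close to 0, and those at both outer ends lie mainly below 0.

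As a gene mean, Col4a1 rose from 61.9 to 64.7% in Sham (SDs of 0.838 and 1.14 points, adjusted p = 0.000502) and from 62.5 to 64.3% in PM (SDs of 1.64 and 0.664 points, adjusted p = 0.0118). Col4a2 rose from 70.3 to 72.3% in Sham (adjusted p = 0.00197) and went from 70.8 to 71.8% in PM (adjusted p = 0.0749). Col4a3 and Col4a4 code for type IV chains of kidney and alveolar basement membrane. Of their 48 windows, 5 were higher and 9 lower in Sham (10.4% and 18.75%, under the 13.3% and 22.3% of all windows). In PM 1 was higher and 22 lower (2.08% and 45.8%, against 9.26% and 34.8%). After centring these were 4 and 13 in PM (8.33% and 27.1%, against 21.8% and 20.4%). The window over their shared start was at 17.04% in Sham and 17.98% in Sham-OVA (adjusted p = 0.3), and at 17.02 and 17.5% in PM and PM-OVA (adjusted p = 0.534).

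Beaded filament collagens (type VI), which link cells to the surrounding matrix, had 12 windows higher and 14 lower of 114 in Sham (10.5% and 12.3%), and 5 higher and 38 lower in PM (4.39% and 33.3%), at or under the shares of all windows. After centring, 16 were higher and 11 lower in Sham, and 16 higher and 17 lower in PM, so the balance of directions in this family depended on the scaling. Over the gene starts, Col6a2 window 1 rose from 21.5 to 24.1% in Sham (adjusted p = 0.0138) and went from 21.6 to 22.7% in PM (adjusted p = 0.252, and 0.0204 after centring). Col6a1 window 1, which Gm48276 also overlaps, rose from 52.6 to 55.6% in Sham (adjusted p = 0.0314), and went from 53.3 to 55.0% in PM (adjusted p = 0.201). The PM value was called with the replicate block (adjusted p = 0.0404), after centring (adjusted p = 0.0364) and without PM-OVA replicate 8. The Sham call of Col6a1 was lost without Sham replicate 2 or 3 or Sham-OVA replicate 1, 2, 4 or 6, with adjusted p-values up to 0.0771. Col6a3 window 1 gave 62.5% in Sham and 64.7% in Sham-OVA (adjusted p = 0.166), and was called without Sham replicate 6.

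Short chain collagens had 8 of 31 windows lower and 3 higher in Sham (25.8% and 9.68%, near the 22.3% and 13.3% of all windows). In PM 15 were lower and 1 higher (48.4% and 3.23%, against 34.8% and 9.26%). After centring, 6 were lower and 5 higher in Sham (19.4% and 16.1%, against 18.4% and 18.5% of all windows). In PM 8 were then lower and 4 higher (25.8% and 12.9%, against 20.4% and 21.8%). Col8a1, a chain of the network collagen made by vessel walls, had 8 of 20 windows lower in Sham and 13 in PM (6 and 8 after centring), and Col8a2 had 3 of 11 higher and 0 lower in Sham, and 1 higher and 2 lower in PM (4 higher and 0 lower in PM after centring). The start window of Col8a1 fell from 34.1 to 31.5% in Sham (adjusted p = 0.0369) and went from 34.0 to 31.8% in PM (adjusted p = 0.061). The Sham call was lost after centring (adjusted p = 0.0641), with only the groups of that contrast (adjusted p = 0.0899) and without Sham replicate 2, 3, 4, 5 or 7 or Sham-OVA replicate 3, 5 or 6, where the fall came down to 1.68 points in the last case. The PM value was called on the percent scale (adjusted p = 0.0439), with the replicate block (adjusted p = 0.0246), with the robust spread (adjusted p = 0.0486), with only its groups (adjusted p = 0.0346) and without Sham-OVA replicate 4 or 6, PM replicate 3 or PM-OVA replicate 4. Col7a1, the anchoring fibril of epithelium, had 2 of 12 windows lower in Sham (16.7%, under the 22.3% of all windows) and 6 in PM (50%, against 34.8%).

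Fibril associated collagens, which decorate the surface of fibrils, had 66 of 188 windows lower and 12 higher in Sham (35.1% and 6.38%), and 95 lower and 5 higher in PM (50.5% and 2.66%). All windows gave 22.3% and 13.3%, and 34.8% and 9.26%, and centring moved the counts of the family to 51 and 17, and 56 and 13. Among them Col14a1 had 18 of 36 windows lower in Sham and 24 in PM, and 0 higher in either (2 higher in PM after centring). Its gene mean fell from 79.8 to 78.0% in Sham (SDs of 0.246 and 0.742 points, adjusted p = 4.13e-05) and from 80.1 to 77.4% in PM (SDs of 0.319 and 0.746 points, adjusted p = 8.17e-08). Col12a1 had 12 of 21 windows lower and 3 higher in Sham, and Col22a1 had 16 of 31 lower and 1 higher (12 and 2 after centring). The start windows of Col12a1 and Col14a1 were close to unmethylated, at 0.459% and 1.94% in Sham. Col12a1 had 1.04% in Sham-OVA (adjusted p = 0.0124, and 0.126 on the percent scale). In PM its libraries ran from 0.0714 to 1.165%, and in PM-OVA from 0.392 to 1.187%, which overlapped. A call there came with centring (adjusted p = 0.000451).

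Transmembrane collagens had 70 of 211 windows lower and 13 higher in Sham (33.2% and 6.16%), and 111 lower and 3 higher in PM (52.6% and 1.42%), against 22.3% and 13.3%, and 34.8% and 9.26%, of all windows. After centring these were 62 and 20, and 68 and 16. Col25a1, a neuronal transmembrane collagen with the most windows of all, gave 39 lower and 5 higher in Sham and 58 lower and 1 higher in PM (36 and 8, and 40 and 6, after centring). Col23a1 had 16 of 68 windows lower and 4 higher in Sham, and 25 lower and 1 higher in PM (13 and 8, and 12 and 8, after centring). Its shares of falls, 23.5% and 36.8%, were close to those of all windows. It held one of the larger rises, at window 42 (chr11:51468754-51471348), an intronic window 180.1 kb from the start. There all 7 Sham-OVA libraries (47.3 to 55.2%, median 51.5%) lay above the Sham libraries (39.1 to 46.1%, median 43.3%), a rise of 8.62 points (adjusted p = 0.000128). In PM the window rose by 6.38 points, from 44.0 to 50.3% (adjusted p = 0.00152), and 7 of 8 PM-OVA libraries lay above the PM range.

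The multiplexins Col15a1 and Col18a1, found in basement membranes of vessels, had 16 of 49 windows lower and 4 higher in Sham (32.7% and 8.16%), and 27 lower and 2 higher in PM (55.1% and 4.08%), against 22.3% and 13.3%, and 34.8% and 9.26%, of all windows. After centring these were 15 and 4, and 15 and 5. Col15a1 window 15 (chr4:47270587-47275877), with 63 exonic bases 65.1 kb from the gene start, was the DMR that fell in PM offspring. The PM libraries ran from 83.5 to 86.7% (median 85.1%) and the PM-OVA libraries from 70.4 to 77.5% (median 74.6%), a difference of -10.7 points (adjusted p = 3.48e-10). The Sham libraries ran from 81.3 to 83.8% (median 82.7%) and the Sham-OVA libraries from 70.6 to 76.7% (median 73.9%), a difference of -9.21 points (adjusted p = 9.31e-09). Every OVA library lay below every unchallenged library of its arm. After centring the difference in PM was -9.68 points (adjusted p = 3.15e-09), under the 10 points of a DMR. Of all 23 windows of Col15a1, 9 fell and 1 rose in Sham. The start window of Col18a1 had group means from 1.33 to 1.73%.

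Col26a1 and Col28a1 belong to none of these families. Col28a1 had 12 of 25 windows lower and 1 higher in Sham, and 17 lower in PM (48% and 68% lower, against 22.3% and 34.8% of all windows). Col26a1 had 9 of 40 higher and 5 lower in Sham (22.5% and 12.5%, against 13.3% and 22.3% of all windows), and 5 higher and 12 lower in PM (12.5% and 30%, near the 9.26% and 34.8% of all windows). After centring it had 9 higher and 3 lower in Sham and 6 higher and 8 lower in PM. Its intronic window 22 rose by 7.60 points in Sham (medians 61.9 and 71.1%, adjusted p = 0.00103) and by 6.46 points in PM (medians 66.2 and 71.8%, adjusted p = 0.00227).

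Across families, calls were also counted by position and level. Of the 34 collagen windows that hold a gene start, 10 rose and 4 fell in Sham (29.4% and 11.8%), whereas of all autosomal start windows 9.81% rose and 19.3% fell. These collagen windows were also less methylated than start windows in general, at 33.1% against 51.7% in Sham. Among start windows under 30% in the unchallenged libraries of the other arm, 7 of 16 collagen windows rose and 0 fell in Sham, against 15.6% and 5% of 9233 autosomal ones, and 5 of 16 rose and 0 fell in PM, against 13.3% and 6.05% of 9258. In PM, 5 collagen start windows rose and 2 fell (14.7% and 5.88%, against 6.93% and 32.0%). After centring, which adds rises at low levels, 13 rose and 2 fell in Sham (38.2% higher, against 15.1% of all autosomal start windows), and 16 rose and 2 fell in PM (47.1% higher, against 25.1%). Windows were also sorted by their level in the unchallenged libraries of the other arm, which the tested contrast did not use. Where that level was under 30%, 18 of 43 collagen windows rose and 0 fell in Sham, against 20.5% and 5.62% of all autosomal windows. Where it was 80% or more, 193 of 381 collagen windows fell and 6 rose (50.7% and 1.57%), against 29.9% and 7.62% of all. In PM offspring the highest levels had 268 of 368 windows lower (72.8%, against 45.9% of all). Between 60 and 80%, the collagen share of falls in Sham was 21.7%, near the 20.7% of all windows. After centring, falls in the highest class came to 44.6% in Sham and 51.4% in PM, against 24.9% and 28.4% of all.

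**Figure D5:**
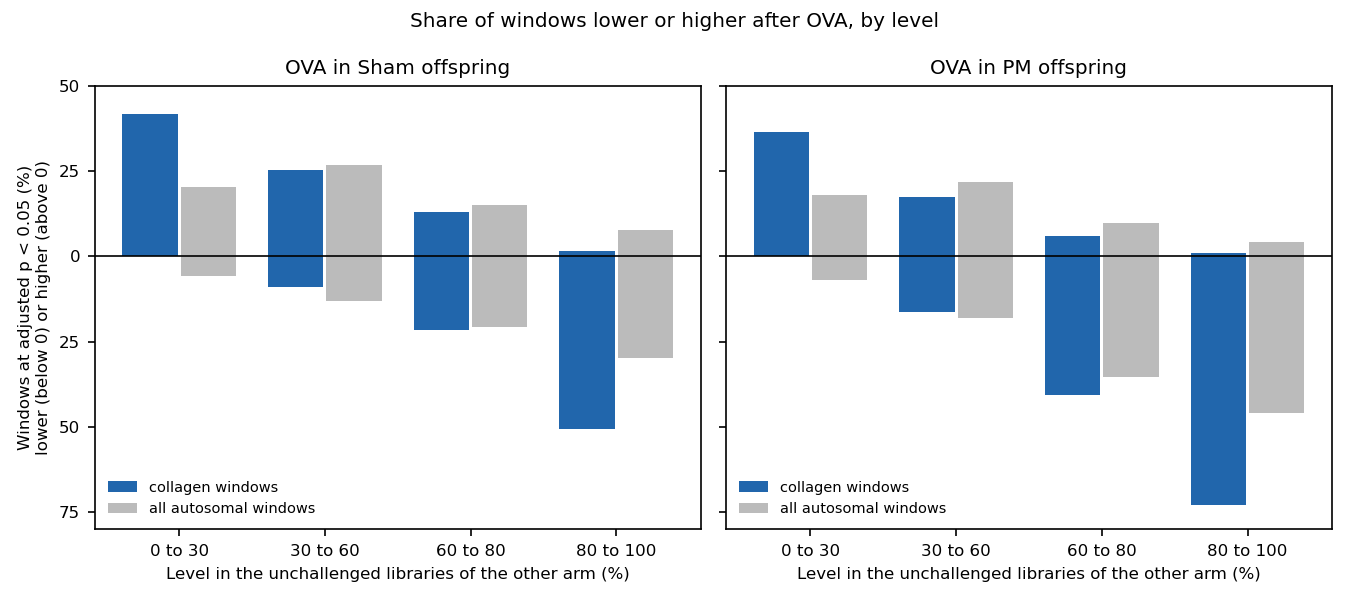
Share of windows (percent, vertical axis) with an adjusted p under 0.05, higher after OVA above 0 and lower below 0, by %DNAm in the unchallenged libraries of the other arm, for collagen windows (blue) and all autosomal windows (grey) in Sham (left) and PM (right) offspring. Collagen windows exceed the grey bars for rises in the lowest class and for falls in the highest class.

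Maternal exposure was compared next, with and without OVA. Neither contrast nor the interaction gave a collagen DMR, as over all windows (0.0% in each). At an unadjusted p under 0.05, limma called 57 collagen windows (5.67%) for PM without OVA, against 5.79% of all windows. For PM with OVA it called 68 (6.76%, against 5.96%), and for the interaction 84 (8.35%, against 7.4%). Over the collagen windows the PM without OVA difference ran from -2.86 to 5.22 points. The smallest p belonged to Col4a4 window 15 (chr1:82501126-82502413), with a mean of 93.2% (SD 4.49) in Sham and 98.4% (SD 1.15) in PM, 7 libraries each (adjusted p = 0.696). For PM with OVA it was Col24a1 window 16, with 80.9% in Sham-OVA and 78.7% in PM-OVA (adjusted p = 0.796).

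For the interaction, which asks whether OVA acted differently by dam, the smallest p was at Col23a1 window 12 (chr11:51337164-51342156). OVA left that window at 79.3 and 80.2% in Sham and Sham-OVA (adjusted p = 0.456) and lowered it from 81.8 to 77.7% in PM (adjusted p = 0.000277). All 8 PM-OVA libraries lay below the PM range, yet the interaction of -4.94 points did not pass (adjusted p = 0.536).

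Genes that make, process or sense collagen were read from lists. The 19 genes of collagen modification and folding had 27 of 185 windows higher and 43 lower in Sham, and 19 higher and 63 lower in PM. These shares (14.6% and 23.2%, and 10.3% and 34.1%) were close to those of all windows (13.3% and 22.3%, and 9.26% and 34.8%). The 14 genes of propeptide removal and crosslinking had 33 of 219 higher and 57 lower in Sham (15.1% and 26.0%, also close to all windows), and 23 higher and 94 lower in PM (10.5% and 42.9%). One window of Pcolce, whose product speeds the trimming of procollagen, was a DMR in both arms. It rose from 52.8 to 67.0% in Sham (adjusted p = 2.44e-06) and from 54.2 to 65.4% in PM (adjusted p = 3.04e-05). No other of the 219 windows was a DMR in either arm, so DMRs were not more common there than over all windows (0.775% and 0.584%). The 10 collagen receptor genes had 31 of 160 windows higher and 27 lower in Sham (19.4% and 16.9%), and 26 higher and 48 lower in PM (16.3% and 30%). After centring, the 3 lists had 37, 44 and 42 windows higher and 34, 50 and 22 lower in Sham, and 45, 41 and 37 higher and 37, 61 and 27 lower in PM. A window of Itga1, an integrin chain that binds collagen, rose from 46.0 to 57.6% in Sham (adjusted p = 1.63e-05) and from 47.4 to 58.0% in PM (adjusted p = 2.29e-05). A window of Lair1, an inhibitory collagen receptor of leucocytes, fell from 66.4 to 54.4% in Sham (adjusted p = 5.77e-07) and from 64.6 to 56.1% in PM (adjusted p = 3.41e-05). Among the 160 receptor windows, 1 DMR was higher and 1 lower in Sham, and 1 higher and 0 lower in PM.

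Marker genes of 4 cell types were read as lists, and those of leucocytes and endothelium differed most after OVA. Over 117 windows of 19 leucocyte genes, mean methylation was 69.5 to 70.7% in Sham and 67.1 to 68.7% in Sham-OVA, and 69.97 to 71.0% in PM and 67.2 to 68.1% in PM-OVA, without overlap. Of these windows 49 were lower and 32 higher in Sham (41.9% and 27.4%), and 54 lower and 26 higher in PM (46.2% and 22.2%). All windows gave 22.3% and 13.3%, and 34.8% and 9.26%. After centring, 49 were lower and 41 higher in Sham, and 48 lower and 38 higher in PM, so the balance in PM depended partly on the scaling. As DMRs, 19 fell and 1 rose in Sham, and 20 fell and 1 rose in PM (all windows, 0.775% and 0.584%). The rise was in Spi1, from 41.5 to 55.3% in Sham and from 40.5 to 54.0% in PM. Over 74 windows of 5 endothelial genes it was 66.5 to 69.4% in Sham and 69.2 to 71.7% in Sham-OVA, with 34 windows higher and 5 lower in Sham (45.9% and 6.76%) and 32 and 9 in PM (43.2% and 12.2%), a lean shared with Col4a1 and Col4a2. In PM these endothelial windows had 66.3 to 70.2% and in PM-OVA 69.1 to 71.4%. The lean was not uniform, since as DMRs 2 endothelial windows rose and 1 fell in Sham, and 1 rose and 1 fell in PM. The fall was in Pecam1, with -18.04 points in Sham (adjusted p = 1.8e-08) and -15.94 points in PM (adjusted p = 4.08e-08). It was larger than the rises, in another window of Pecam1 (12.48 points in Sham and 11.58 in PM) and in Cdh5 (11.15 points in Sham). Over 47 windows of 9 epithelial genes, 11 were higher and 4 lower in Sham (23.4% and 8.51%), whereas 5 were higher and 8 lower in PM (10.6% and 17%). After centring the epithelial counts were 18 and 4, and 14 and 5. Over 63 windows of 8 fibroblast and smooth muscle genes, 15 were higher and 22 lower in Sham (23.8% and 34.9%), and 9 higher and 27 lower in PM (14.3% and 42.9%). After centring these were 16 and 18, and 17 and 16, and the library means overlapped (67.2 to 68.6% in Sham and 66.7 to 68.5% in Sham-OVA). The part of cell composition in the collagen values was not tested.

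Col4a3bp is not a collagen gene. Of its 15 windows 4 rose and 1 fell in each arm (26.7% and 6.67%). All windows gave 13.3% and 22.3% in Sham, and 9.26% and 34.8% in PM. After centring, 7 rose and 1 fell in Sham, and 10 and 0 in PM, against 18.5% and 18.4%, and 21.8% and 20.4%, of all windows. The mean of Col4a3bp rose from 75.9 to 76.9% in Sham (adjusted p = 0.00234) and from 76.1 to 76.7% in PM (adjusted p = 0.0402). Without this gene the collagen counts were 308 lower and 105 higher in Sham and 487 lower and 61 higher in PM.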

How the data were processed

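The deposited table gives percent methylation (%DNAm) per window and library, which the authors obtained by trimming reads with Trim Galore, mapping to GRCm38 and calling methylation with DRAGEN, and summarising per-base percentages over 100-CpG windows in SeqMonk, with at least 10 informative CpGs. Windows hold a median of 50 CpG dinucleotides on the reference, counting each once for both strands. No counts or coverage are in the table, so the count test of the study was not used, and no counting error can be given. Windows with at least 3 values per group were tested (259167). Percentages were put on a log2 scale as methylated over unmethylated, each with 1 point added, and 4 group means were fitted to all 29 libraries with limma (version 3.58.1, R 4.3.3), and 2-sided p-values were adjusted by Benjamini-Hochberg across those windows, or across 38037 gene means. The offspring of a group are taken as replicates, and litters are not given by the labels. Annotation came from GENCODE M21, promoter records from RefSeq (GRCm38.p6). The 2000 bp before a gene start were counted as promoter, and windows of a gene are numbered from its 5' end. Scripts were tested on simulated data and used Python 3.11.15.

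Members, gene lists and tests were chosen with earlier results of these data known. Named windows were every collagen DMR, the 5 largest rises and 5 largest falls per OVA contrast (1 per gene), the smallest p of each other contrast, start windows of 17 chosen genes where a window held the start, the most variable window, Col4a3bp and genes with extreme numbers of windows or means. Other genes are named as examples within their family. Alternatives covered the offset, the scale, centring, missing values, the groups fitted, the spread estimate, the replicate block, single libraries, the thresholds and the members.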

Additional observations from a re-analysis of the deposited data

Results flagged for a closer look

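In the groups of 4 to 8 libraries, 6 values lay far from the rest of their group by Dixon's test. Since 128 groups were examined, those of the 30 named windows and of the library means, and chance alone would single out about 1 in 20 groups, 6 is no more than such a share. In Col4a1 window 4, PM-OVA replicate 5 had 63.7%, with the next lowest library at 68.6%. In Col4a2 window 26, PM-OVA replicate 4 had 65.9%, with the next lowest at 72.6%. PM replicate 1 had 57.1% in Col6a1 window 1, with the next highest at 53.2%, and Sham replicate 4 had 4.09% in Col14a1 window 1, with the next highest at 2.30%.

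Col14a1 window 16 (chr15:55396353-55404495), an intronic window of 8143 bp, was the most variable of all collagen windows, with a within-group SD of 6.10 points, and the only one with missing values. Sham-OVA replicate 7 had 56.4% there, with the next lowest at 80.6%, and PM replicate 7 had 76.4%, with the next lowest at 84.1%. Values were present in 4 libraries of Sham and of PM, in 5 of Sham-OVA and in 7 of PM-OVA, and the fits dropped the others. The group means were 85.4% in Sham and 77.7% in Sham-OVA (adjusted p = 0.144), and the difference ran from -10.9 points without Sham replicate 7 to -2.30 points without Sham-OVA replicate 7.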

How the results depend on the processing

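Total counts of collagen windows and genes at adjusted p under 0.05 kept within 1.5 times of those reported under the alternatives run. By direction they did not, since centring moved the windows in PM from 65 to 127 higher and from 488 to 314 lower, and the genes higher from 4 to 9 in Sham and from 3 to 7 in PM. The DMR counts moved with the thresholds and with single libraries. With a minimum of 5 points, 63 collagen windows were DMRs for OVA in Sham (30 higher, 33 lower) and 72 for OVA in PM (21 higher, 51 lower). With an adjusted p under 1e-06, there were 0 in Sham and 1 in PM. Leaving out 1 library gave 1 to 2 DMRs in Sham (2 without Sham replicate 7 or Sham-OVA replicate 5) and 1 to 3 in PM, with 1 left without PM replicate 2, 6 or 7 or PM-OVA replicate 1, 2, 3 or 7. After centring, the 2 DMRs in PM were both higher, in Col11a2 and Col4a1, and Col15a1 window 15 was none. Leaving out single libraries gave 373 to 426 windows at adjusted p under 0.05 in Sham and 508 to 556 in PM, and 17 to 19 and 31 to 35 genes. With the replicate block, 425 and 524 windows, 19 and 33 genes and 1 and 2 DMRs were called. Same-numbered libraries did not deviate together (r from -0.0705 to 0.13, median 0.0174, against -0.00214 for other numbers), and 9 of 29 libraries correlated best with their own number, so the numbers were not taken as pairs. Of 538 values of named windows under the alternatives other than single libraries, 521 kept their direction and their side of the threshold. The exceptions in direction were uncalled: Col6a3 window 1 in PM gave 0.512 points after centring (-0.876 to 0.000884 without single libraries), Col14a1 window 1 in Sham -0.127 to 0.367 points and Col18a1 window 1 in PM -0.101 to 0.171 points without single libraries. Col14a1 window 16 in Sham was called with the replicate block (adjusted p = 0.028) and without Sham replicate 7 (adjusted p = 0.0328). Depth could not be examined. The cause of these shifts was not tested.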
